A study of Mus musculus with 16 samples.

Results

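The BCL2 family genes described here were 10 genes of the mitochondrial death pathway, chosen by name: the antiapoptotic *Bcl2*, *Bcl2l1* (BCL-XL) and *Mcl1*, the pore-forming effectors *Bax* and *Bak1*, and the BH3-only genes *Bbc3* (PUMA), *Pmaip1* (NOXA), *Bcl2l11* (BIM), *Bad* and *Hrk*. They are 10 of the 53776 genes in the deposited expression table, and their level was the sum of the FPKM (fragments per kilobase of transcript, scaled to the library's reads) of all isoforms carrying the gene's symbol, 43 isoforms in all. RNA-seq was done on 16 wild-type (wt) mouse primary cortical neuron cultures from embryonic day 15, 4 in each of 4 groups. At 8 days in vitro (DIV) the cultures were given 10 μM tianeptine (TIA), an atypical antidepressant, or vehicle (VEH). They underwent 3 h of oxygen-glucose deprivation (OGD), an in vitro model of stroke, or a sham procedure 24 h later, at 9 DIV, and RNA was taken after 6 h of reoxygenation. Cultures 1 to 4 were CONTROL-VEH and cultures 5 to 8 CONTROL-TIA, while OGD-VEH held cultures 9 to 12 and OGD-TIA cultures 13 to 16. The sample labels call the vehicle cultures untreated. The study's methods call the 4 cultures of each group biological replicates. Neither the methods nor the labels say which cultures came from separate preparations. The p-values thus measure the spread between these 16 samples, which may be partly technical.

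BCL2 family proteins decide whether the outer mitochondrial membrane stays intact. BCL2, BCL-XL and MCL1 hold the effectors BAX and BAK in check, and BH3-only proteins, made or activated under stress, occupy the groove of the antiapoptotic members or engage the effectors directly. Once BAX or BAK form pores, cytochrome c leaves the mitochondria and caspases are activated. In neurons, BAX is the main effector, BCL-XL the main antiapoptotic protein after development, and *Bbc3*, *Hrk* and *Bcl2l11* are known to be induced by neurotrophin loss, DNA damage or ischemia.

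The family is held together by the BH3 segment, the helix through which its members bind each other. Its core, a leucine followed by 3 residues that end in a hydrophobic one, a small residue and an aspartate, was searched in the annotated coding sequences, and the codons of this core are set in capitals in the lines that follow to show what the members share. Each line is the coding strand, 5′ to 3′, in GRCm38, with 9 bases on either side.
*Bcl2*, chr1:106712575-106712610, minus strand, exon 1 of Bcl2-201, from codon 94 of 236: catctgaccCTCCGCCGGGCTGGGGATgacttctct
*Bcl2l1*, chr2:152829697-152829732, minus strand, exon 2 of Bcl2l1-201, from codon 90 of 233: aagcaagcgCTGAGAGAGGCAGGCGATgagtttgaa
*Mcl1*, chr3:95659427-95659462, plus strand, exon 1 of Mcl1-201, from codon 194 of 331: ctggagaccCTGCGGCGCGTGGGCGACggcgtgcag
*Bax*, chr7:45465997-45466032, minus strand, exon 3 of Bax-201, from codon 63 of 192: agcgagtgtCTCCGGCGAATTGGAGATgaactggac
*Bak1*, chr17:27022531-27022566, minus strand, exon 4 of Bak1-202, from codon 76 of 209: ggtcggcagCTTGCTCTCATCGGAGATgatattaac
*Bbc3*, chr7:16313764-16313799, plus strand, exon 3 of Bbc3-201, from codon 141 of 193: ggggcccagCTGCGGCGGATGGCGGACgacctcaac
*Bcl2l11*, chr2:128147141-128147176, plus strand, exon 3 of Bcl2l11-205, from codon 150 of 196: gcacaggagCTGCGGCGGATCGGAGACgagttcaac
*Bad*, chr19:6950783-6950818, plus strand, exon 3 of Bad-202, from codon 109 of 162: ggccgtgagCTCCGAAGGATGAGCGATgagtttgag
*Hrk*, chr5:118169882-118169917, plus strand, exon 1 of Hrk-201, from codon 37 of 92: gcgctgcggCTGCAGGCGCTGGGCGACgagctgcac

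The core lies in 1 exon in each of these 9 genes, and several annotated isoforms do not carry it. Of the isoforms in the table, it was absent from Bcl2l1-208 and Bcl2l1-209, from Bax-204 and Bax-206, from Bbc3-202, Bbc3-203 and Bbc3-204, from Bcl2l11-202, Bcl2l11-206, Bcl2l11-207 and Bcl2l11-208, and from Hrk-202, which was listed at 0 in all cultures. This matters for reading the summed values, because isoforms with the core supplied all of the FPKM of *Bcl2*, *Mcl1*, *Pmaip1*, *Bad* and *Hrk*, 83.7% of that of *Bax*, 76.5% of that of *Bcl2l11*, 49.8% of that of *Bcl2l1* and 26.4% of that of *Bbc3* over the 16 cultures. For *Bak1* the share was 47.7%. An isoform with 52.3% of its FPKM is not in the annotation used here. It is listed at chr17:27022576-27028587, a span that ends before the core and so lacks it. Bcl2l1-208, on the minus strand, ends at chr2:152829757 and Bbc3-202 at chr7:16313738, each shortly before the core of its gene. The shares are thus of annotated isoforms. Whether reads given to such short isoforms came from longer mRNA was not tested. The levels of single isoforms are taken up after those of the genes.

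The libraries were similar in depth, at an estimated 20.1 to 26.1 M reads. The neuronal label was met by the markers. All 11 neuron markers (among them *Tubb3*, *Map2* and *Rbfox3*) passed 0.5 FPKM, and their summed level was 2182 to 2827 FPKM in CONTROL-VEH, 2264 to 2449 in CONTROL-TIA, 1074 to 2025 in OGD-VEH and 1402 to 2297 in OGD-TIA. Neuronal RNA was thus present in all cultures. The mean sum was lowest in OGD-VEH (1522 FPKM), but its range overlapped with that of OGD-TIA. Between these 2 groups, 0 of the 11 markers had an unadjusted limma p under 0.05. The 7 astrocyte markers summed to 479 to 776, 423 to 544, 641 to 1660 and 483 to 1220 FPKM in the same order, and the 7 oligodendrocyte lineage markers to 170.98 to 206.08, 152 to 189, 232 to 637 and 216 to 412 FPKM. The 5 markers of cycling progenitors summed to 66.9 to 134.9, 66.9 to 80.0, 95.5 to 290.9 and 79.6 to 216.3 FPKM. Only 1 of 7 microglial markers, 1 of 6 endothelial and mural markers and 1 of 4 fibroblast and meningeal markers had a mean of 0.5 FPKM or more; none of these markers was at 0 in all 16 cultures. The cultures thus also held glial and progenitor RNA, with the highest sums in OGD-VEH. By limma in OGD-VEH against CONTROL-VEH, 3 of 6 tested oligodendrocyte lineage markers were higher and 1 lower at an adjusted p up to 0.05. At that adjusted p, 0 of 7 astrocyte and 0 of 5 progenitor markers passed. At an unadjusted limma p under 0.05, 2 astrocyte and 3 progenitor markers were higher and 0 lower. In such bulk samples, fewer cells of a type and less RNA per cell cannot be told apart, and the part of these shifts in the values that follow was not tested.

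In control cultures the family spanned a wide range of transcript levels. By mean FPKM in CONTROL-VEH the order was *Bax* (127), *Bcl2l1* (98.8), *Bak1* (78.4), *Mcl1* (41.2), *Bad* (37.1), *Bbc3* (36.2), *Hrk* (16.7), *Pmaip1* (6.56), *Bcl2* (3.94) and *Bcl2l11* (3.63). The ranges of the 4 cultures overlapped between all neighbours in this order except *Bak1* and *Mcl1* and except *Hrk* and *Pmaip1*. Since FPKM is per transcript length, *Bax* mRNA stood 24.9- to 34.5-fold over *Bcl2* mRNA in these cultures, and 1.06- to 1.50-fold over *Bcl2l1*. These ratios depended on the isoforms counted: with the most-read isoform alone the mean log2 ratio went from 4.96 to 3.93 for *Bax* to *Bcl2* and from 0.38 to 1.35 for *Bax* to *Bcl2l1*.

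**Figure D1:**
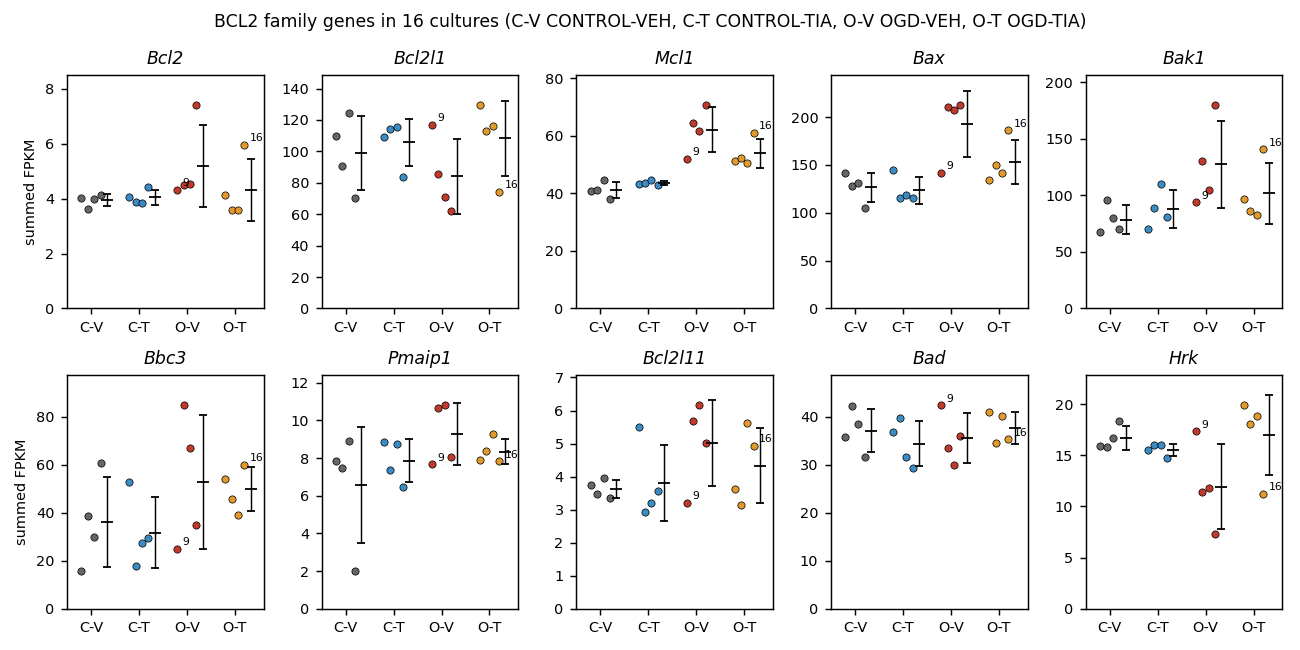
Summed FPKM (vertical axis, from 0) of the 10 genes in each of the 16 cultures by group (C-V, CONTROL-VEH; C-T, CONTROL-TIA; O-V, OGD-VEH; O-T, OGD-TIA), with the mean and SD of the 4 cultures beside the points; cultures 9 and 16 are numbered. *Mcl1* in the OGD-VEH cultures lies at 51.9 to 70.6 FPKM, above all CONTROL-VEH cultures (37.9 to 44.6), while *Bad* overlaps in all groups.

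The first comparison asked how OGD changed these genes without the drug. A gene was called differentially expressed (DEG) where its Benjamini-Hochberg adjusted p (padj) was 0.05 or less and its level differed by at least 1 on the log2 scale in either direction. Of 16373 genes tested with limma, 668 were DEGs (4.08%), and 0 of the 10 family members were. The count rested on single cultures: it was 2187 without OGD-VEH 9 and 1 to 71 when any 1 of the other 7 cultures was left out. At the same padj without the fold limit, 818 genes (5.0%) were higher in OGD-VEH, and 1 of the 10 members, *Mcl1*, was among them, a share close to that of all genes, while 0 members were among the 564 that were lower. At an unadjusted p under 0.05 the counts were 4 members (*Mcl1*, *Bax*, *Bak1* and *Hrk*) and 5737 genes, 35.0% of all. The median log2 fold change of the members was 0.48, with 7 of 10 above 0, against 0.10 over all genes, of which 58.2% were above 0. With the libraries scaled by median ratios instead of as deposited, the split of genes past padj 0.05 moved from 818 higher and 564 lower to 650 and 674, and the median of the members to 0.39.

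*Mcl1*, a short-lived antiapoptotic protein that binds BAK and BIM, rose 1.50-fold. Its levels were 40.9, 41.3, 44.6 and 37.9 FPKM in CONTROL-VEH 1 to 4 and 51.9, 64.4, 61.5 and 70.6 FPKM in OGD-VEH 9 to 12. All OGD-VEH cultures stood above all CONTROL-VEH cultures (log2 fold change 0.59, SE 0.12, limma padj 0.0367). A padj under 0.05 needed every culture but OGD-VEH 9. It was kept without OGD-VEH 9 (padj 0.00566) and lost when any of the other 7 was left out, with log2 fold changes of 0.52 to 0.67.

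The other antiapoptotic genes did not pass. *Bcl2*, which guards mitochondria and the endoplasmic reticulum, was at 4.03, 3.62, 3.98 and 4.14 FPKM in CONTROL-VEH and at 4.32, 4.49, 4.54 and 7.41 FPKM in OGD-VEH. The groups did not overlap, but 3 OGD-VEH cultures lay just over the controls and the spread came from OGD-VEH 12 (log2 fold change 0.35, 95% interval -0.09 to 0.80, padj 0.229). *Bcl2l1* was at 110, 90.4, 124 and 70.4 FPKM in CONTROL-VEH and at 117, 85.9, 71.0 and 62.4 FPKM in OGD-VEH. Its groups overlapped widely, and the interval of the difference ran from -0.78 to 0.30 (padj 0.488).

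Among the effectors, *Bax*, whose product inserts into the outer mitochondrial membrane, was at 141, 128, 132 and 105 FPKM in CONTROL-VEH and at 142, 210, 208 and 213 FPKM in OGD-VEH. The cultures OGD-VEH 10, 11 and 12 stood well over all controls and OGD-VEH 9 level with the highest of them (log2 fold change 0.60, SE 0.16, padj 0.0515). *Bak1*, its partner resident in the mitochondrial membrane, was at 67.7, 95.7, 80.1 and 70.1 FPKM in CONTROL-VEH and at 93.9, 131, 105 and 180 FPKM in OGD-VEH. Only OGD-VEH 9 overlapped with the controls (log2 fold change 0.67, SE 0.21, padj 0.0701). Without OGD-VEH 9, both had a padj under 0.05 (0.00520 for *Bax* and 0.0245 for *Bak1*), as did 30.4% of all genes. The *Bak1* gene overlaps *Ggnbp1* on the opposite strand; the library kit keeps strand, but the strand setting of the counting is not given in the sources used here.

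Among the BH3-only genes, *Bbc3* and *Pmaip1* varied widely between cultures. *Bbc3*, a p53 target that binds all antiapoptotic members, was at 15.6, 38.8, 29.8 and 60.5 FPKM in CONTROL-VEH and at 24.9, 84.7, 66.8 and 34.8 FPKM in OGD-VEH. The ranges overlapped, and the interval of the log2 fold change ran from -0.58 to 1.66 (padj 0.457). *Pmaip1*, which mainly targets MCL1, was at 7.83, 7.49, 8.88 and 2.02 FPKM and at 7.67, 10.6, 10.8 and 8.08 FPKM, with 1 low control culture (log2 fold change 0.67, SE 0.43, padj 0.294). *Bcl2l11*, a FOXO and JUN target, was at 3.75, 3.49, 3.95 and 3.34 FPKM and at 3.20, 5.69, 6.16 and 5.00 FPKM, so that OGD-VEH 9 lay under all controls and the other three over them (log2 fold change 0.42, SE 0.21, padj 0.198).

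*Bad*, whose product is held inactive by phosphorylation, was at 35.9, 42.2, 38.5 and 31.6 FPKM in CONTROL-VEH and at 42.4, 33.5, 30.0 and 35.9 FPKM in OGD-VEH. No shift was seen (log2 fold change -0.07, 95% interval -0.39 to 0.26, padj 0.766); the gene overlaps *Gpr137* on the opposite strand. *Hrk*, a BH3-only gene of neurons, went the other way. It was at 15.9, 15.8, 16.7 and 18.3 FPKM in CONTROL-VEH and at 17.3, 11.4, 11.8 and 7.28 FPKM in OGD-VEH, and OGD-VEH 10, 11 and 12 lay under all controls (log2 fold change -0.54, SE 0.24, padj 0.142). Without OGD-VEH 9, the log2 fold change of *Hrk* was -0.74 (padj 0.0230) and that of *Bcl2l11* was 0.61 (padj 0.0173).

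Counted by overlap, 3 of 10 members (*Bcl2*, *Mcl1* and *Bax*) had all OGD-VEH cultures over all CONTROL-VEH cultures and 0 had all under them. Over all genes tested, 22.7% had groups that did not overlap, so the share of members was close to the background. By summed FPKM, OGD-VEH 9 was at the end of its group's range in all 10 members. It had the lowest *Mcl1*, *Bax*, *Bak1*, *Bbc3*, *Pmaip1*, *Bcl2l11* and *Bcl2* and the highest *Bcl2l1*, *Bad* and *Hrk*. By the most-read isoform, *Bbc3* was lowest in OGD-VEH 10 and *Bak1* in OGD-VEH 11, and *Bad* was lowest rather than highest in OGD-VEH 9. The neuron marker sum of OGD-VEH 9 (2025 FPKM) was also the highest of its group. Its astrocyte (641), oligodendrocyte lineage (232) and progenitor (95.5) sums were the lowest. OGD-VEH 12 had the lowest neuron sum (1074), the highest astrocyte sum (1660), the highest *Bcl2*, *Mcl1*, *Bax* and *Bak1* and the lowest *Bcl2l1* and *Hrk*. The sham cultures CONTROL-VEH 4 and CONTROL-TIA 8 also had the highest *Bcl2* and astrocyte sum and the lowest *Bcl2l1* of their groups. Their neuron sums, however, were the highest and their *Mcl1* the lowest.

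**Figure D2:**
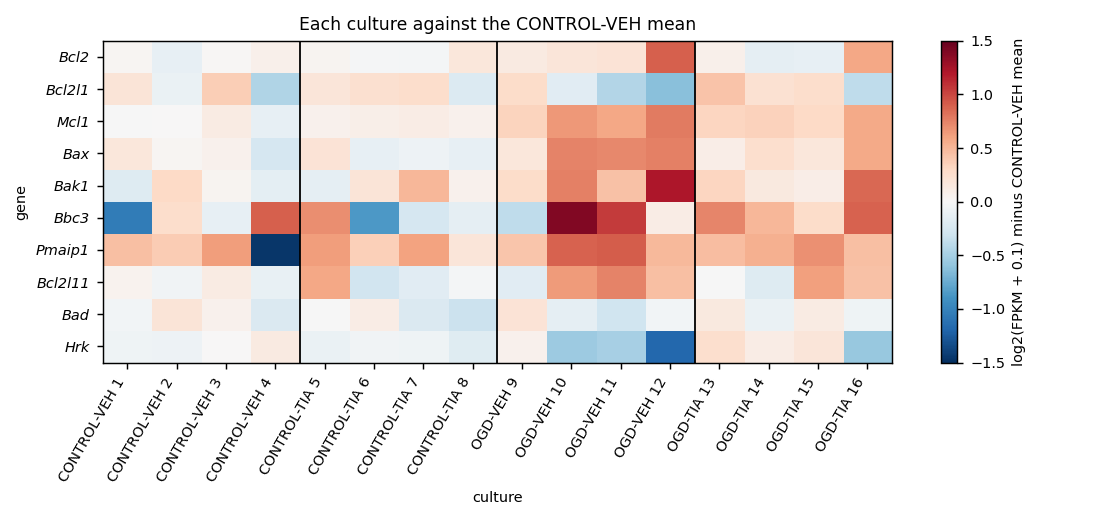
Log2(FPKM + 0.1) of each gene (rows) in each of the 16 cultures (columns), minus the mean of the 4 CONTROL-VEH cultures; red is higher, blue is lower and vertical lines part the groups. OGD-VEH 10, 11 and 12 and OGD-TIA 16 show red *Mcl1*, *Bax* and *Bak1* with blue *Hrk*, whereas OGD-VEH 9 and OGD-TIA 13 are close to the controls for *Bax* and do not show blue *Hrk*.

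The second comparison asked the same of cultures pretreated with TIA. Of 16270 genes tested in OGD-TIA against CONTROL-TIA, 0 were DEGs by limma (0.0%) and 3178 had an unadjusted p under 0.05 (19.5%), with 0 members called and 3 members (*Mcl1*, *Bax* and *Bbc3*) at an unadjusted p under 0.05. All 10 members had a log2 fold change over 0, with a median of 0.16 against 0.04 over all genes, of which 55.8% were above 0. The values of *Bcl2l1* (0.014) and *Bcl2* (0.06) did not hold that side: *Bcl2l1* was under 0 in 4 of 9 alternative settings and *Bcl2* with array quality weights, and both when some single cultures were left out; *Bad* was under 0 with the most-read isoform.

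In *Mcl1* the groups stayed apart, from 43.1, 43.6, 44.5 and 43.0 FPKM in CONTROL-TIA 5 to 8 to 51.4, 52.3, 50.6 and 61.1 FPKM in OGD-TIA 13 to 16 (log2 fold change 0.30, SE 0.08, padj 0.147). It was the only 1 of the 10 members whose groups did not overlap, while 16.2% of all genes did not. *Bax* was at 145, 116, 119 and 116 FPKM in CONTROL-TIA and at 134, 150, 142 and 186 FPKM in OGD-TIA. The lowest OGD-TIA cultures lay under CONTROL-TIA 5 (log2 fold change 0.30, padj 0.235). *Bbc3* was at 52.6, 17.7, 27.2 and 29.5 FPKM and at 53.9, 45.9, 39.2 and 60.007 FPKM, where CONTROL-TIA 5 alone reached the OGD-TIA range (log2 fold change 0.74, SE 0.30, padj 0.237).

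Of the rest, *Bak1* was at 70.5 to 110 FPKM in CONTROL-TIA and 83.1 to 141 in OGD-TIA, and *Bcl2l1* at 83.8 to 116 and 74.3 to 130. *Hrk* was at 15.5, 15.98, 15.95 and 14.7 FPKM in CONTROL-TIA and at 19.9, 18.0, 18.9 and 11.2 FPKM in OGD-TIA. In *Hrk*, 3 OGD-TIA cultures were over and 1, OGD-TIA 16, under all CONTROL-TIA cultures, so the mean barely differed (log2 fold change 0.10, padj 0.785). The remaining log2 fold changes were 0.06 for *Bcl2*, 0.09 for *Pmaip1*, 0.19 for *Bcl2l11* and 0.14 for *Bad*, with padj from 0.535 to 0.868. OGD-TIA 16 was the culture with the lowest neuron marker sum (1402 FPKM) and the highest astrocyte sum (1220 FPKM) of its group, and it also had the highest *Bcl2*, *Mcl1*, *Bax*, *Bak1* and *Bbc3* and the lowest *Bcl2l1* and *Hrk*.

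**Figure D3:**
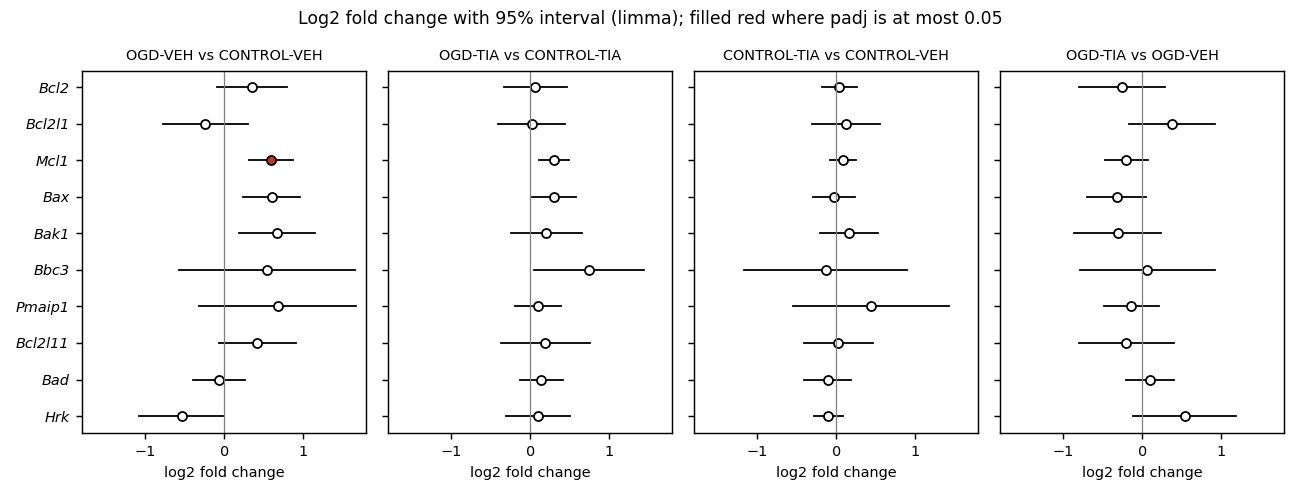
Log2 fold change (horizontal axis) with its 95% interval from limma for the 10 genes in the 4 pairwise comparisons; red points have a padj of at most 0.05. *Mcl1* in OGD-VEH against CONTROL-VEH is the only red point, and in the panels of OGD-VEH and of CONTROL-TIA against CONTROL-VEH the intervals of *Bbc3* and *Pmaip1* are the widest.

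TIA on its own was compared in sham cultures. Of 16193 genes, 0 were DEGs by limma in CONTROL-TIA against CONTROL-VEH (0.0%), 623 had an unadjusted p under 0.05, and 0 members had either. The log2 fold changes of the members lay between -0.14 (*Bbc3*) and 0.44 (*Pmaip1*). All 10 overlapped between the groups, as did all but 2.07% of the genes tested. The intervals were narrow for *Mcl1* (-0.09 to 0.25), *Hrk* (-0.29 to 0.09) and *Bcl2* (-0.19 to 0.26) and wide for *Bbc3* (-1.16 to 0.89).

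TIA against vehicle after OGD addressed whether pretreatment changed the family under stress. Of 16377 genes, 0 were DEGs by limma in OGD-TIA against OGD-VEH (0.0%) and 1293 had an unadjusted p under 0.05 (7.9%), with 0 members in either count. All 10 members overlapped between the groups, as did all but 3.8% of genes. The lowest unadjusted p among the members was that of *Bax* (log2 fold change -0.33, 95% interval -0.70 to 0.05, padj 0.551), followed by *Hrk* (0.54, interval -0.11 to 1.19, padj 0.551). *Mcl1* was -0.20 (interval -0.48 to 0.08), *Bak1* -0.31 (-0.86 to 0.24), *Bcl2l1* 0.38 (-0.16 to 0.92) and *Bbc3* 0.06 (-0.80 to 0.92). With array quality weights, which give outlying libraries less weight, *Bax* (-0.48, padj 0.0466) and *Hrk* (0.65, padj 0.0487) had a padj under 0.05, as did 9.35% of all genes.

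Whether OGD acted differently after TIA was tested directly as an interaction over the 16 cultures (the OGD effect with TIA minus the one without it). Of 16339 genes, 0 were called by limma (0.0%) and 990 had an unadjusted p under 0.05, among them 0 members. *Hrk* (0.64, SE 0.31) and *Mcl1* (-0.28, SE 0.14) were closest, both with a padj of 0.723. For *Mcl1* the OGD effect was thus 0.59 without and 0.30 with TIA, and the interval of the difference, -0.58 to 0.0092, includes 0.

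Averaged over both drug arms, 3 members were higher after OGD. In the fit of 16 cultures, 782 of 16339 genes (4.79%) were DEGs and 0 members were. Past padj 0.05 at any fold, 3075 genes (18.8%) were higher, and 3 of 10 members were among them: *Mcl1* rose by 0.44 on the log2 scale (SE 0.07, 1.36-fold, padj 0.00124), *Bax* by 0.45 (SE 0.10, 1.37-fold, padj 0.00663) and *Bak1* by 0.43 (SE 0.15, 1.35-fold, padj 0.0403). None of the members was among the 2234 genes that were lower. *Mcl1* and *Bax* kept this when any 1 of the 16 cultures was left out and under all 8 other settings, *Bak1* in 6 of 16 and 3 of 8. *Bak1* kept it without CONTROL-VEH 2, CONTROL-TIA 7, OGD-VEH 9, OGD-VEH 11, OGD-TIA 14 or OGD-TIA 15 and lost it without any of the other 10 cultures, with log2 fold changes of 0.34 to 0.50 over the 16. With median-ratio scaling the split of all genes past padj 0.05 moved from 3075 higher and 2234 lower to 2382 and 2734. *Bbc3* (0.64, SE 0.31, padj 0.125) and *Hrk* (-0.22, padj 0.280) did not pass. By summed FPKM, the members that passed were thus an antiapoptotic gene and both effectors, each under the fold limit for a DEG. *Bak1* did not pass with protein-coding isoforms only. An isoform outside the annotation used, whose span does not reach the BH3 core, had 52.3% of its FPKM. Bak1-202, with the longest *Bak1* reading frame (209 codons), had 2.0%.

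Across the 16 cultures the members that rose moved together. As a description over 16 libraries that share the treatment and the cell makeup, Pearson's r of log2 levels was 0.91 between *Mcl1* and *Bax*, 0.84 between *Mcl1* and *Bak1* and 0.71 between *Bax* and *Bak1*. *Hrk* ran opposite to *Bcl2* (-0.87), *Bak1* (-0.80), *Bax* (-0.77) and *Mcl1* (-0.72), and with *Bcl2l1* (0.75). The 3 genes of 16339 most like *Mcl1* by this measure were *Isg20l2* (0.99), *Gnai3* (0.99) and *Cavin1* (0.98).

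The isoforms were tested in their own right. In OGD-VEH against CONTROL-VEH, 75 of 53087 isoforms were called by limma (0.141%), and 0 of the 29 family isoforms tested were, with 8 at an unadjusted p under 0.05, which 10124 of all isoforms (19.1%) reached. The isoform that codes for full-length BAX, Bax-201, had 49.4% of the *Bax* FPKM. It was at 62.8, 60.2, 69.4 and 53.4 FPKM in CONTROL-VEH and at 77.5, 115, 109 and 119 FPKM in OGD-VEH. It was over the controls in all 4 OGD-VEH cultures, as was the sum, where OGD-VEH 9 exceeded the highest control only narrowly (log2 fold change 0.76, SE 0.16, padj 0.120).

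Bax-201 was at 68.3, 54.3, 49.3 and 62.7 FPKM in CONTROL-TIA and at 62.9, 70.9, 65.9 and 78.5 FPKM in OGD-TIA. The OGD-TIA range overlapped with both the controls and, through OGD-VEH 9 alone, with OGD-VEH (log2 fold change of OGD-TIA against OGD-VEH -0.58, SE 0.15, unadjusted limma p 0.00549, padj 0.724). Of the 52945 isoforms tested there, 6.33% had an unadjusted p under 0.05, and a p of this size did not pass.

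Bbc3-201, the 1 isoform of *Bbc3* in the table with the BH3 codons, was far less variable than the sum. It was at 8.67, 7.62, 8.29 and 11.5 FPKM in CONTROL-VEH, at 8.45, 11.1, 10.3 and 8.67 in CONTROL-TIA, at 15.4, 10.9, 17.8 and 19.1 in OGD-VEH and at 10.7, 10.3, 9.12 and 11.996 in OGD-TIA. In OGD-VEH, 3 of 4 cultures lay over all 12 others and OGD-VEH 10 among them (0.79 against CONTROL-VEH, SE 0.22, padj 0.148; OGD-TIA against OGD-VEH -0.56, SE 0.20, padj 0.724). The summed *Bbc3* gave 0.06 for the last comparison, so the direction there depended on which isoforms were counted. The short Bbc3-202, of 485 bases, ranged from 0 to 42.6 FPKM within OGD-VEH and Bbc3-204, of 405 bases, from 0 to 38.0, while Bbc3-201 stayed within 10.9 to 19.1 there.

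*Bcl2l1* was alike in this. Bcl2l1-208, of 472 bases and without the BH3 codons, ranged from 0.001 to 43.1 FPKM in CONTROL-VEH, whereas Bcl2l1-201, the more abundant of 2 isoforms with the full BCL-XL reading frame of 233 codons, was at 29.7, 26.6, 23.0 and 18.3 FPKM in CONTROL-VEH and at 24.9, 12.8, 20.3 and 17.8 in OGD-VEH (log2 fold change -0.38, SE 0.24, padj 0.419). In the TIA arm Bcl2l1-201 was at 27.1 to 34.4 FPKM in CONTROL-TIA and 19.5 to 28.6 in OGD-TIA (log2 fold change -0.35, SE 0.15, padj 0.473), where the sum gave 0.01. Bcl2l1-202, with the same reading frame, did not follow it: it was at 12.1, 9.999, 15.7 and 13.4 FPKM in CONTROL-VEH and at 14.3, 19.0, 12.3 and 9.61 in OGD-VEH (log2 fold change 0.085, SE 0.24, padj 0.876). In the TIA arm Bcl2l1-202 was at 6.14 to 10.5 FPKM in CONTROL-TIA and 8.20 to 17.3 in OGD-TIA (log2 fold change 0.56, SE 0.26, padj 0.506), so the direction for BCL-XL there differed between its isoforms. Bcl2l11-205, which codes for the longest BIM form and had 75.8% of the *Bcl2l11* FPKM, showed no shift in OGD-VEH (0.09, SE 0.19, padj 0.825).

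**Figure D4:**
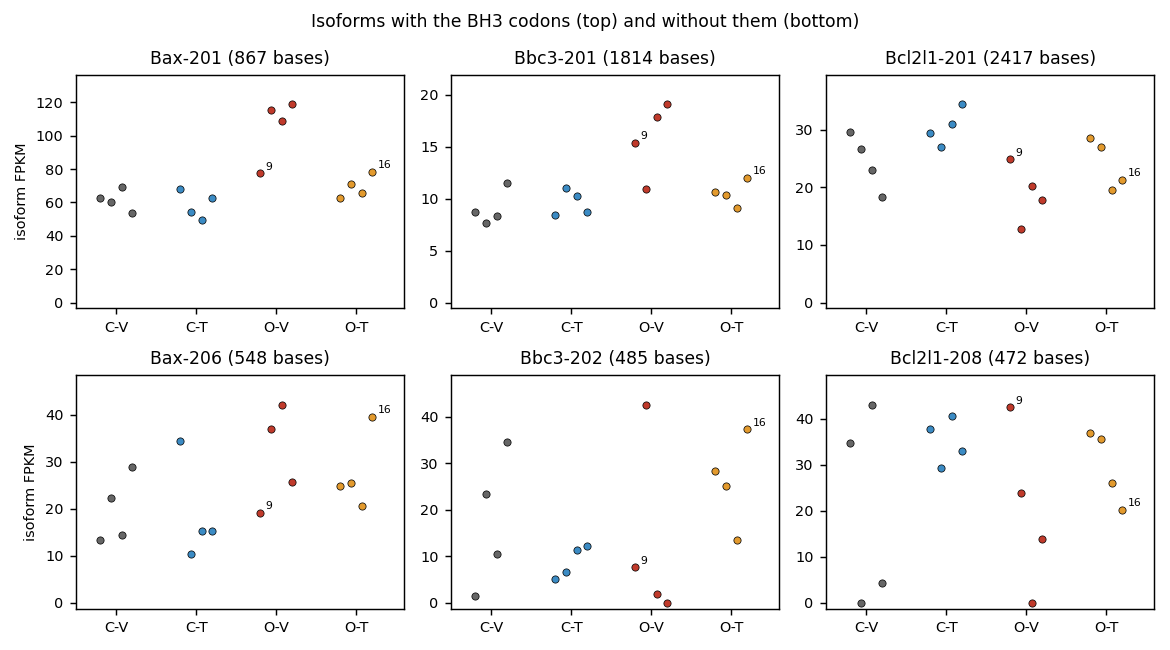
FPKM (vertical axis) in each of the 16 cultures of 3 isoforms that carry the BH3 codons (top: Bax-201, Bbc3-201, Bcl2l1-201) and 3 of the same genes that do not (bottom: Bax-206, Bbc3-202, Bcl2l1-208), with their transcript length (C-V, CONTROL-VEH; C-T, CONTROL-TIA; O-V, OGD-VEH; O-T, OGD-TIA). Bax-201 in OGD-VEH (77.5 to 119 FPKM) lies over both control groups, and the short isoforms of *Bbc3* and *Bcl2l1* run from near 0 to over 40 FPKM within a group.

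The balance of effector and guardian was read as the log2 ratio of *Bax* to *Bcl2l1* and of *Bax* to *Bcl2*, given here by culture with no test. For *Bax* to *Bcl2l1* it was 0.36, 0.50, 0.08 and 0.58 in CONTROL-VEH, 0.40, 0.02, 0.04 and 0.47 in CONTROL-TIA, 0.28, 1.29, 1.55 and 1.77 in OGD-VEH and 0.05, 0.41, 0.29 and 1.32 in OGD-TIA. Thus, by summed FPKM, 3 of 4 OGD-VEH cultures and 1 of 4 OGD-TIA cultures stood over all 8 sham cultures. They had 2.45- to 3.41-fold and 2.50-fold more *Bax* than *Bcl2l1*. The cultures that did not were OGD-VEH 9 and OGD-TIA 13, 14 and 15. This split depended on the isoforms counted. By Bax-201 over Bcl2l1-201, OGD-VEH 9 (77.5 and 24.9 FPKM) and OGD-TIA 15 (65.9 and 19.5) also stood over all sham cultures. The highest sham culture by that measure was CONTROL-VEH 3 (69.4 and 23.0), only narrowly under OGD-VEH 9. The ratio of *Bax* to *Bcl2* did not separate the groups, with means of 4.96 ± 0.22 (SD, n = 4) and 4.90 ± 0.19 in the sham groups with vehicle and TIA, and 5.21 ± 0.35 in OGD-VEH and 5.14 ± 0.20 in OGD-TIA; in OGD-VEH 12 both genes were high.

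**Figure D5:**
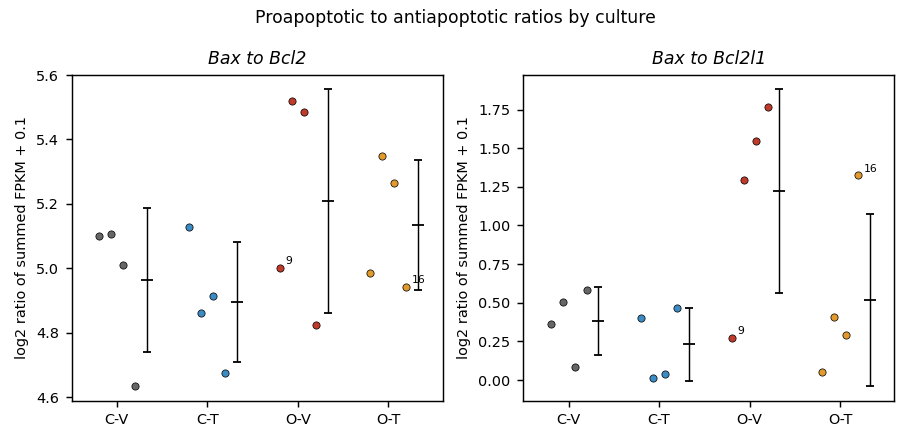
Log2 ratio of *Bax* to *Bcl2* (left) and of *Bax* to *Bcl2l1* (right), from summed FPKM + 0.1, in each of the 16 cultures by group (C-V, CONTROL-VEH; C-T, CONTROL-TIA; O-V, OGD-VEH; O-T, OGD-TIA) with the mean and SD; the axes do not start at 0. On the right, OGD-VEH 10, 11 and 12 and OGD-TIA 16 lie between 1.29 and 1.77 and all other cultures at 0.58 or lower.

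The wider pathway was read from lists of named genes, chosen with earlier results of these data known. Of all genes, 4.08% were DEGs in OGD-VEH against CONTROL-VEH, and 32.5% passed padj 0.05 over both arms. Of 15 other BCL2 family genes, 8 passed the filter on low values. In OGD-VEH against CONTROL-VEH, 1 was called: *Bcl2l12*, a less studied member of the family, rose from 1.99 to 4.49 FPKM in CONTROL-VEH to 5.98 to 11.3 in OGD-VEH (log2 fold change 1.50, SE 0.33, padj 0.0408). It was at 2.32 to 5.21 FPKM in OGD-TIA (OGD-TIA against OGD-VEH -1.14, SE 0.31, padj 0.551). Over both arms, *Bnip3* (-0.62, SE 0.17, padj 0.0135) and *Bnip3l* (-0.37, SE 0.08, padj 0.00637), hypoxia-responsive mitophagy receptors, fell. The list's median in OGD-VEH against CONTROL-VEH was -0.06, against 0.10 for all genes.

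Of 18 tested genes of the death machinery downstream, which includes *Cycs* and *Casp9*, 0 passed padj 0.05 in OGD-VEH against CONTROL-VEH, with a median of 0.14; 4 were higher and 1 lower at an unadjusted p under 0.05. Of all genes, 8.44% passed and 35.0% had such an unadjusted p there. Over both arms 3 passed as higher and 2 as lower, beside 32.5% of all genes that passed in either direction. *Birc5* (survivin), an inhibitor of apoptosis made in dividing cells, rose by 0.91 (SE 0.23, padj 0.0103), and *Apaf1*, the scaffold of the apoptosome, by 0.46 (SE 0.12, padj 0.0114). In the same comparison, 3 of the 5 cycling progenitor markers were higher and 0 lower at padj 0.05. The part of these markers in *Birc5* was not tested.

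Of 20 tested transcription factors that act on BCL2 family genes, 6 were higher and 1 lower at padj 0.05 in OGD-VEH against CONTROL-VEH. As DEGs there were 4 and 1 of them, and the median was 0.51. Of all genes, 8.44% had such a padj and 4.08% were DEGs, with a median of 0.10. *Trp53*, the activator of *Bax*, *Bbc3* and *Pmaip1*, was at 19.5 to 63.1 FPKM in CONTROL-VEH and 108 to 166 in OGD-VEH (log2 fold change 2.0, SE 0.40, padj 0.0347). In the TIA arm it went from 31.7 to 65.3 to 83.4 to 119.6 FPKM (0.95, SE 0.22, padj 0.121), and its interaction did not pass (-1.05, SE 0.49, padj 0.723). *Atf3* (2.54, SE 0.53, padj 0.0367) and *Fos* (2.12, SE 0.44, padj 0.0371), stress-induced factors, and *Stat3* (1.08, SE 0.23, padj 0.0373), an activator of *Mcl1* and *Bcl2l1*, rose. *Mef2c*, a neuronal survival factor, fell by 1.9 on the log2 scale (SE 0.39, padj 0.0367).

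Of 29 tested binding partners and turnover factors, 2 were higher and 8 lower at padj 0.05, 1 and 1 as DEGs, with a median of -0.25. Of all genes in that comparison, 8.44% had such a padj and 4.08% were DEGs, with a median of 0.10. *Bag3*, a co-chaperone that binds BCL2, rose by 1.71 (SE 0.40, padj 0.0437), from 0.80 to 0.93 FPKM in CONTROL-VEH to 1.24 to 5.44 in OGD-VEH. *Itpr1*, the calcium channel of the endoplasmic reticulum that BCL2 binds, fell by 1.51 (SE 0.36, padj 0.0444). The calls of the 8 listed genes named in OGD-VEH against CONTROL-VEH (*Bcl2l12*, *Trp53*, *Atf3*, *Fos*, *Stat3*, *Mef2c*, *Bag3* and *Itpr1*) were kept without OGD-VEH 9. They were lost without any of the other 7 cultures, except that of *Mef2c*, which was also kept without OGD-VEH 12. With no filter on low values all 8 lost theirs (padj 0.0730 to 0.0896). *Bnip3*, *Bnip3l*, *Birc5* and *Apaf1* were not DEGs over both arms, but their padj stayed under 0.05 without any 1 of the 16 cultures. The sizes also depended on the isoforms counted: *Trp53* was 1.24 with protein-coding isoforms (padj 0.0357) and 4.70 with the most-read one (padj 0.104), *Itpr1* was -0.64 weighted by length (padj 0.0545) and -0.53 with the most-read isoform (padj 0.112), and *Bcl2l12* was 2.35 (padj 0.0636) and 2.58 (padj 0.0835) with protein-coding isoforms and the most-read one. *Fos* lost its call under those same settings (padj 0.0543 and 0.0584) and *Mef2c* with the most-read isoform (-1.18, padj 0.0504). *Atf3* was 1.37 with a pseudocount of 1 (padj 0.0448). *Stat3* fell under the fold limit for a DEG with median-ratio scaling (0.99), protein-coding isoforms (0.97) and the most-read isoform (0.97). Over both arms, *Bnip3l* did not pass padj 0.05 with protein-coding isoforms (-0.074, padj 0.367) and was -0.24 weighted by length (padj 0.00532). In the same comparison *Apaf1* was 0.25 with protein-coding isoforms (padj 0.00764) and 0.27 with the most-read one (padj 0.00544). Of the 75 tested genes of the 4 lists, 0 passed padj 0.05 by limma in OGD-TIA against CONTROL-TIA. There, 12 were higher and 11 lower at an unadjusted p under 0.05, which 19.5% of all genes reached. Likewise 0 passed in OGD-TIA against OGD-VEH, in CONTROL-TIA against CONTROL-VEH and in the interaction. At that p, 4 were higher and 6 lower in OGD-TIA against OGD-VEH, where 7.9% of all genes reached it. The counts were 1 and 1 in CONTROL-TIA against CONTROL-VEH (3.85% of all genes) and 5 and 6 in the interaction (6.06%).

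The promoters were read from RefSeq (250 bases before to 50 after the start) for 9 of the 10 members, 15 promoters in all. None held the AP-1 motif TGACTCA, which 5.2% of 32851 promoters hold, the cyclic AMP response element TGACGTCA (1.79%) or the full p53 response element (0.07%), searched on both strands. The E-box CACGTG, held by 7.15%, was found in those of *Bax* and *Bbc3*. That of *Bax*, which rose over both arms, is shown with this motif and a p53 half-site (held by 8.36% of promoters; searched after the full element had given no match) in capitals. It is chr7:45466849-45467148 of GRCm38, minus strand, with the E-box at positions 242 to 247 and 286 to 291 and the half-site at 50 to 59.
*Bax* promoter: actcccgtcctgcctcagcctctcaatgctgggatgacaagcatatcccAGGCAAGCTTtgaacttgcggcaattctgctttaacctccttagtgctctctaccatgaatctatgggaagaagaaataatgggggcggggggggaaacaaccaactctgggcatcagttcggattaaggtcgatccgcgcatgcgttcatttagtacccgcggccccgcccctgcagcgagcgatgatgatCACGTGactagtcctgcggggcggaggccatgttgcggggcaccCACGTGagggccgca
A match is only these letters in this window, and no match says nothing of the factor.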

How the data were processed

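RNA-seq of 16 primary cortical neuron cultures was analysed. Libraries were prepared by the authors' service provider with a stranded mRNA kit and sequenced with 50-base single-end reads. Per the submitters' processing notes, reads were mapped with STAR to GRCm38; per the methods, eXpress estimated isoform levels. The deposited values are FPKM per isoform after TMM scaling by the authors, as the name of the table states. The labels give 18 to 23 M aligned reads, and the smallest steps in FPKM gave 20.1 to 26.1 M, at which 1 read on a transcript of 1 kilobase is worth 0.0383 to 0.0498 FPKM; since isoform reads were assigned by probability, no counting interval was given. Of 135276 lines, 74 had no identifier and were left out. Groups came from the sample titles.

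Isoform FPKM were summed per gene, with genes from GENCODE M21 (99.89% of isoforms found; 98.86% of these with the same ends), and tested as log2(FPKM + 0.1) with limma 3.58.1 in R 4.3.3 (empirical Bayes with trend) for genes whose mean reached 0.5 FPKM, with Benjamini-Hochberg adjustment over all genes; fold changes of low genes are understated on this scale. Each pairwise comparison used its 8 cultures, and the interaction and the OGD effect over both arms used 16. The study's thresholds for DEGs were used (padj up to 0.05, log2 fold change 1 or more in either direction). DESeq2, the study's tool, needs read counts and was not applied. With it, the study reported more DEGs in OGD-VEH against CONTROL-VEH than were found here. It also reported DEGs in OGD-TIA against CONTROL-TIA, where limma on FPKM called none. The limma test was run on simulated data with planted changes well over those of the members and with the spread of the sham cultures. That check does not cover changes as small as those of the members or the wider spread after OGD.

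All 10 members were named in each comparison; from each pathway list, the genes called in any comparison (at most 5 in each direction) or otherwise the 2 with the smallest p, plus *Trp53*; and the 3 genes most like the member with the smallest p. *Bnip3* and *Bnip3l* were named after their values were seen. The members and lists were chosen with earlier results of these data known. Alternatives were pseudocounts of 1 and 0.01, no filter, median-ratio scaling, array quality weights, length-weighted or protein-coding isoforms, 1 fit over 16 cultures and leaving out each culture; the most-read isoform alone was added after seeing the data, as was the count at padj 0.05 without a fold limit. Tables and plots were made with matplotlib 3.10.9, pandas 2.3.3 and numpy 2.4.6 in Python 3.11.15. No *Pmaip1* sequence is shown.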

Additional observations from a re-analysis of the deposited data

Results flagged for a closer look

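Among 40 groups of 4 cultures tested with Dixon's criterion (10 genes in 4 groups), 4 held a culture far from the other three; chance flags about 1 group in 20. *Bcl2* was at 7.41 FPKM in OGD-VEH 12, over the other OGD-VEH cultures at 4.32 to 4.54. *Mcl1* was at 61.1 FPKM in OGD-TIA 16, over the other OGD-TIA cultures at 50.6 to 52.3. *Bax* was at 144.8 FPKM in CONTROL-TIA 5, over the other CONTROL-TIA cultures at 116 to 119. *Bax* was at 141.6 FPKM in OGD-VEH 9, under the other OGD-VEH cultures at 208 to 213. In OGD-VEH 12 and OGD-TIA 16 the neuron marker sum was also the lowest of the group, and in OGD-VEH 9 the highest; the part of these markers in the values was not tested.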

How the results depend on the processing

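The calls rest on 4 cultures a group, and depth was similar in all libraries. The rises of *Mcl1* and *Bax* over both arms kept their direction and a padj under 0.05 under every alternative run. In OGD-VEH against CONTROL-VEH, *Mcl1* did not keep such a padj under every alternative. The cultures are numbered 1 to 16 and no number is shared between groups, so no paired analysis was run. CONTROL-VEH 4, CONTROL-TIA 8, OGD-VEH 12 and OGD-TIA 16 each had the highest *Bcl2* and astrocyte sum and the lowest *Bcl2l1* of their group. Their *Bcl2l1* was at 70.4, 83.8, 62.4 and 74.3 FPKM. *Mcl1* was lowest in cultures 4 and 8 but highest in 12 and 16, and the neuron sum the reverse. Whether cultures at the same place in their groups share a preparation is not given and was not tested. Of 1160 values of single members under alternatives, 1068 kept direction and side of the threshold, 21 passed it newly, 23 lost it and 48 changed sign, none of them with a padj under 0.05 in either setting; the cause was not tested.

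In OGD-VEH against CONTROL-VEH, 668 DEGs became 36 with no filter, 1930 with array quality weights, 1121 with isoforms weighted by length, 1415 in 1 fit over 16 cultures, and 1 to 2187 leaving out each culture. Members with a padj of up to 0.05 at any fold went from 1 to 0, 6, 3 and 3 under the same settings, where 0.144%, 38.8%, 25.0% and 28.3% of all genes had such a padj (8.44% as reported), to 2 with the most-read isoform (7.61%), and 0 to 5 leaving out each culture (5 without OGD-VEH 9, 30.4%); *Bbc3* was 1 DEG with array quality weights. In OGD-TIA against CONTROL-TIA, DEGs went from 0 to 7 with no filter, 80 with array quality weights, 72 weighted by length, 1 in 1 fit, and 0 to 17 leaving out each culture. With no filter there were 4 in CONTROL-TIA against CONTROL-VEH, 4 in OGD-TIA against OGD-VEH and 3 in the interaction. OGD-TIA against OGD-VEH had 406 with array quality weights (and 2 members with a padj of up to 0.05, beside 9.35% of all genes) and 0 to 2 leaving out each culture, and the interaction had 1 with protein-coding isoforms and 0 to 1 leaving out each culture. Over both arms, 782 DEGs became 392 with a pseudocount of 1 and 510 with the most-read isoform, and members with a padj of up to 0.05 were 2 to 5 leaving out each culture (5 without OGD-VEH 9, beside 40.9% of all genes).

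Sign changes of log2 fold changes were as follows. In OGD-TIA against CONTROL-TIA, *Bcl2* was -0.083 with array quality weights, *Bad* -0.26 with the most-read isoform, and *Bcl2l1* -0.031 with median-ratio scaling, -0.013 weighted by length, -0.11 with protein-coding isoforms and -0.35 with the most-read isoform. In CONTROL-TIA against CONTROL-VEH, *Bak1* was -0.0065 and *Bbc3* 0.091 with protein-coding isoforms, *Bbc3* 0.10 with the most-read isoform, and *Bcl2l11* -0.059 with array quality weights, -0.11 weighted by length, -0.16 with protein-coding isoforms and -0.10 with the most-read isoform. In OGD-TIA against OGD-VEH, *Bbc3* was -0.48 with array quality weights, -0.17 weighted by length, -0.076 with protein-coding isoforms and -0.56 with the most-read isoform, and in the interaction -0.46, -0.048, -0.17 and -0.65. Over both arms, *Bad* was -0.029 with median-ratio scaling, -0.043 with array quality weights, -0.033 weighted by length and -0.28 with the most-read isoform.

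Leaving out each culture, values that changed sign ranged from -0.16 to 0.0097 for *Bad* in OGD-VEH against CONTROL-VEH. In OGD-TIA against CONTROL-TIA they ranged from -0.10 to 0.14 for *Bcl2* and -0.094 to 0.19 for *Bcl2l1*. In CONTROL-TIA against CONTROL-VEH the ranges were -0.0063 to 0.060 for *Bcl2*, -0.033 to 0.24 for *Bcl2l1*, -0.12 to 0.025 for *Bax*, -0.49 to 0.16 for *Bbc3*, -0.045 to 0.65 for *Pmaip1* and -0.16 to 0.13 for *Bcl2l11*. For *Bbc3* they were -0.24 to 0.34 in OGD-TIA against OGD-VEH and -0.11 to 0.55 in the interaction, and for *Bad* over both arms -0.0081 to 0.075.

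The log2 ratio of *Bax* to *Bcl2* moved by more than 1 SD to 4.68, 4.62 and 4.87 in CONTROL-VEH, CONTROL-TIA and OGD-TIA with a pseudocount of 1, to 4.70, 4.66 and 4.85 with protein-coding isoforms, and with the most-read isoform to 3.93, 3.83 and 4.02 and, in OGD-VEH, to 4.34. That of *Bax* to *Bcl2l1* became 0.77 and 0.73 in the sham groups with vehicle and TIA weighted by length, and 1.35, 0.94, 2.485 and 1.54 in the groups in order with the most-read isoform.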
